A study of Mus musculus with 6 samples.

Results

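Solute carriers are membrane proteins that move amino acids, sugars, ions, metals, nucleotides and metabolites across the plasma membrane and the membranes of organelles, and the number in a gene symbol such as Slc25a4 names the family. Their transcripts were examined here for sites where RNA was recovered with an antibody against ZFP36L2, a CCCH zinc finger protein best known for binding AU-rich stretches of mRNAs and promoting their decay. Members were all peaks whose gene name starts with Slc, a family number, the letter a and a member number, with 1 matching symbol left out. They came to 864 of the 55449 peaks and to 161 of the 10818 gene names in the authors' deposited table. Of these names, 157 have the form of a transporter symbol and 4 do not. The latter are the scaffold genes Slc9a3r1 and Slc9a3r2, the adaptor gene Slc4a1ap and the pseudogene Slc2a4rg-ps. Symbols with another letter after the family number, such as those of Slc35b, do not fall under the pattern.

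The cells were MLTC-1, a mouse Leydig cell tumour line from the testis, and the method was eCLIP, in which ultraviolet light joins proteins to the RNA they touch and an antibody then recovers the joined fragments. All 6 libraries came from cells given the same exposure (254 nm, 400 mJ per cm2). They form 4 groups, namely 2 immunoprecipitations with the ZFP36L2 antibody, 2 inputs of these, 1 immunoprecipitation with rabbit IgG as the negative control and 1 input of it. No group carries a genetic change, and the labels name no separate cultures. Titles give each immunoprecipitation and its input a shared sample number, and that of IgG differs from those of ZFP36L2. What these numbers stand for is not said, so antibody and sample number cannot be told apart. Having 1 line and 1 control immunoprecipitation limits what the groups can stand for. The authors' deposited table gives, for each peak, the log2 ratio of ZFP36L2 to IgG with its adjusted p, and no value for any single library. The depth behind a peak and the spread between libraries are therefore unknown, no error can be put on a fold change, and the direction is that of the table's name. The ratio compares recovery with the ZFP36L2 antibody and with IgG. It gives neither the amount of a transcript nor the share of cells that hold it. Peaks of 16 Leydig markers were read as well, though a ratio between antibodies measures no expression and cannot check the identity of the line. Of these markers, 11 had a peak. An enriched peak (higher with ZFP36L2) was found in 3 of the 11 (27.3%), against 5.04% of all gene names. A depleted peak (higher with IgG) was found in 3 (27.3%), Gata4, Nr2f2 and Pdgfra, against 17.3%. Cyp17a1, Hsd3b1, Hsd3b6, Hsd17b3 and Insl3 had no peak among those analysed. Peaks were also found for 4 of 11 Sertoli, 3 of 10 germ cell and 10 of 10 macrophage markers. The same held for 16 of 16 cardiac muscle genes, a list drawn up with earlier results of these data known. Of those with a peak, 2 Sertoli, 0 germ cell and 1 macrophage markers had an enriched peak, as did 9 cardiac genes. A depleted peak was found in 1 macrophage marker, 1 cardiac gene and no Sertoli or germ cell marker. Enriched peaks were thus not confined to the Leydig list.

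In most cells, transporters set the supply of substrates for growth and for mitochondrial metabolism. Amino acid uptake runs through exchangers that pair a light chain with the heavy chain 4F2hc, encoded by Slc3a2, and through sodium-driven symporters. The Slc25 family sits in the inner mitochondrial membrane and exchanges metabolites and nucleotides with the cytosol. In steroid-making cells, hormone synthesis begins at that same membrane. Zinc enters the cytosol through the Slc39 family and leaves it through Slc30.

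Peak sequences could be read only where a peak lay whole inside a RefSeq promoter window (GRCm38.p6, the build of mm10), which spans 250 bases before to 50 after a gene's start. This held for 4 member peaks, none of them called. Peaks of 2 carriers named here are shown, as the letters of sites with no call, 5′ to 3′ on the transcript strand as DNA, with capitals in the Slc25a3 sequence marking the bases from the RefSeq start of that gene onward. The Slc30a1 sequence was read from the window of a neighbouring gene on the opposite strand, 1700034H15Rik, and has no such mark.
Slc25a3 (chr10:91123951-91123975, minus strand, 5′ UTR): cattcggcCTCTGTGAGCCGCAACC
Slc30a1 (chr1:191907581-191907614, plus strand, coding): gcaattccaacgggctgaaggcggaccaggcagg
The first belongs to the mitochondrial phosphate carrier, begins 8 bases before the RefSeq start and stood at 0.75 on the log2 scale (adjusted p = 1) as listed in the authors' deposited table. The other belongs to a zinc exporter, lies in coding sequence and had -2.30 (adjusted p = 0.79) taken from the authors' deposited table. Their G and C content was 64.0% and 64.7%, with no value for other peaks to set beside it. The sequences of the called peaks were not read here.

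Calls required an adjusted p under 0.05, together with 1 or more on the log2 scale for an enriched peak and -1 or less for a depleted one. Enriched thus means higher with the ZFP36L2 antibody than with IgG, and depleted the reverse. Of the 864 solute carrier peaks, 13 (1.5%) were enriched, against 2.22% of all peaks, and 48 (5.56%) were depleted, against 5.44% of all peaks. By gene, 8 of 161 (4.97%) had an enriched peak, against 5.04% of all gene names, and 30 (18.6%) had a depleted peak, against 17.3%. The remaining 125 had no call. As a whole, then, the transporter genes lay close to the table they came from, and the account that follows concerns which of them carried the calls. Their median log2 fold change was -1.12, with quartiles of -1.92 and -0.19, beside -1.06 for all peaks in the authors' deposited table. When the fold changes were centred on that overall median, member peaks at -3 or less went from 42 to 7 and those at 3 or more from 10 to 18.

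Every called value was large. The smallest enriched log2 fold change among the members was 2.67 and the depleted one nearest 0 was -2.26 in the authors' deposited table. Size alone did not give a call, since 143 of the 191 member peaks at -2 or less, and 4 of the 17 at 2 or more, were not called. The 4 lay in Slc25a11, Slc38a2, Slc4a3 and Slc6a8.

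Enriched peaks lay mostly in exons. Of the 13, 7 were coding, 4 were in 3′ UTRs and 2 were intronic. Exonic peaks thus made up 84.6%, against 51.3% of all enriched peaks in the table. The coding ones lay in 3 genes and those in 3′ UTRs in 4. In the whole table, 508 enriched intronic peaks lay in 173 genes, so genes with several calls weigh on both shares. Coding sequence held 239 member peaks, of which 7 (2.93%) were enriched against 2.35% of all coding peaks, and 10 (4.18%) were depleted against 3.74%. In 3′ UTRs, where 173 member peaks lay, 4 (2.31%) were enriched against 1.46% and 6 (3.47%) were depleted against 4.83%. Introns held 431 peaks, of which 28 (6.50%) were depleted against 7.04%, while 2 (0.464%) were enriched against 2.17%. Both enriched intronic peaks belonged to Slc39a11, whereas the depleted ones were spread over 22 genes. Among 39 genes with intronic peaks alone, 7 had a depleted peak and 0 an enriched one, against 17.3% and 5.04% of all gene names. The share over all genes with intronic peaks alone was not taken. No test was made of these shares, since peaks of 1 gene share a transcript.

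**Figure D1:**
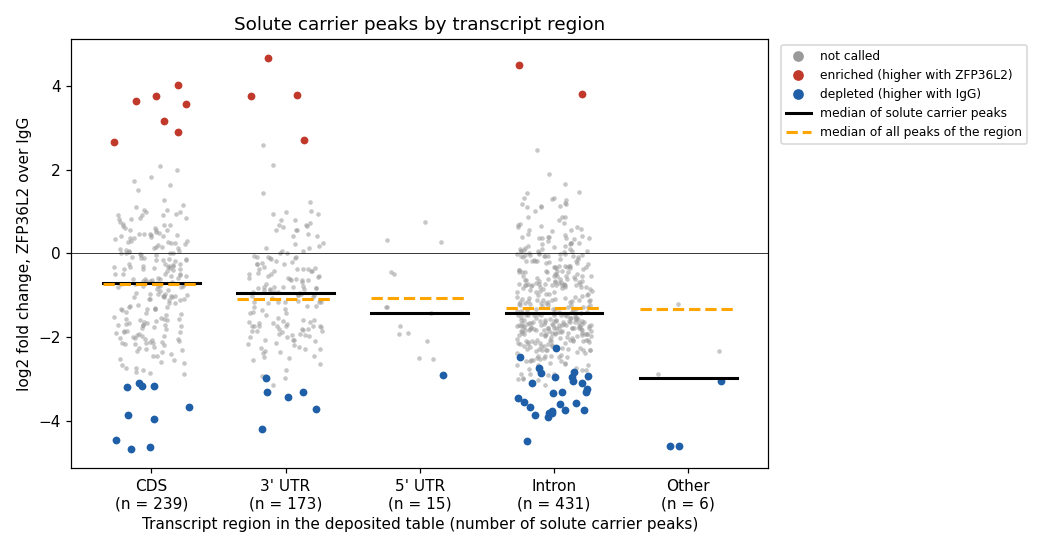
Log2 fold change of ZFP36L2 over IgG (vertical axis) for the 864 solute carrier peaks by transcript region, where each point is 1 peak, red points are enriched, blue points depleted and grey points not called. Black bars give the median of the members and dashed orange bars that of all peaks of the region. The medians are -0.71 and -0.72 in coding sequence and -1.41 and -1.31 in introns, and enriched points sit mostly in the coding and 3′ UTR columns.

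Mitochondrial carriers held 4 of the 13 enriched peaks, which was 2.9% of their peaks, against 2.22% of all peaks. Slc25a4, which encodes an adenine nucleotide translocase that exchanges ADP and ATP across the inner membrane, was enriched in 3 of its 8 peaks, more than any other member. These 3 coding peaks, at 46208522 to 46208537, 46209179 to 46209236 and 46210811 to 46210866 on chromosome 8, had log2 fold changes of 4.02 (adjusted p = 8.7e-06), 3.63 (adjusted p = 2.8e-08) and 2.90 (adjusted p = 9.3e-05) read from the authors' deposited table. The other 5 peaks ran from -0.60 to 1.82 there, so 7 of 8 values lay above 0. Its paralogue Slc25a5, another adenine nucleotide translocase, had 3 peaks, at -1.72, -0.25 and -0.10 by the authors' deposited table, and none was called. The sources used here do not state how reads shared between such similar genes were assigned.

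Slc25a11 encodes the oxoglutarate carrier, which works in the malate-aspartate shuttle. It had the largest log2 fold change of all members, 4.66 (adjusted p = 4.4e-09) as listed in the authors' deposited table, in a 3′ UTR peak at 70644354 to 70644407 on chromosome 11. The peak that touches it, at 70644408 to 70644471, stood at 2.60 with an adjusted p of 0.051 in the authors' deposited table and just missed the call. Its coding peaks, 5 in number, ran from -0.65 to 0.42 there. The highest values of this transcript thus lay side by side in its 3′ UTR. The aspartate-glutamate carriers of the same shuttle looked otherwise. Slc25a12 had 1 of 11 peaks depleted, an intronic one at -3.74 (adjusted p = 0.00047) taken from the authors' deposited table, and none of the 13 peaks of Slc25a13 was called.

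Depleted calls fell on 5 mitochondrial carriers, Slc25a12 among them. Slc25a47, a carrier best known from liver, was depleted in both of its peaks, with -4.20 in the 3′ UTR (adjusted p = 5.0e-10) and -3.90 in an intron (adjusted p = 3.6e-08) read from the authors' deposited table. Slc25a38, which brings glycine into mitochondria for heme synthesis, had 1 peak, intronic, at -4.48 (adjusted p = 2.1e-09) as listed in the authors' deposited table. Slc25a26, the S-adenosylmethionine carrier, had 3 of 7 peaks depleted, namely touching coding peaks at -3.86 and -3.19 and an intronic one at -3.81 in the authors' deposited table. All 7 of its values were negative. Slc25a1, the citrate carrier, had 1 of 2 peaks depleted, in its 3′ UTR (-2.98, adjusted p = 0.011) taken from the authors' deposited table. Over the 32 mitochondrial carriers with a peak, 4 of 138 peaks (2.9%) were enriched and 8 (5.8%) depleted, against 2.22% and 5.44% of all peaks. Their median was -0.81. Slc25a3, the phosphate carrier shown above, was not called in any of 7 peaks, which ranged from -0.16 to 1.64 in the authors' deposited table.

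**Figure D2:**
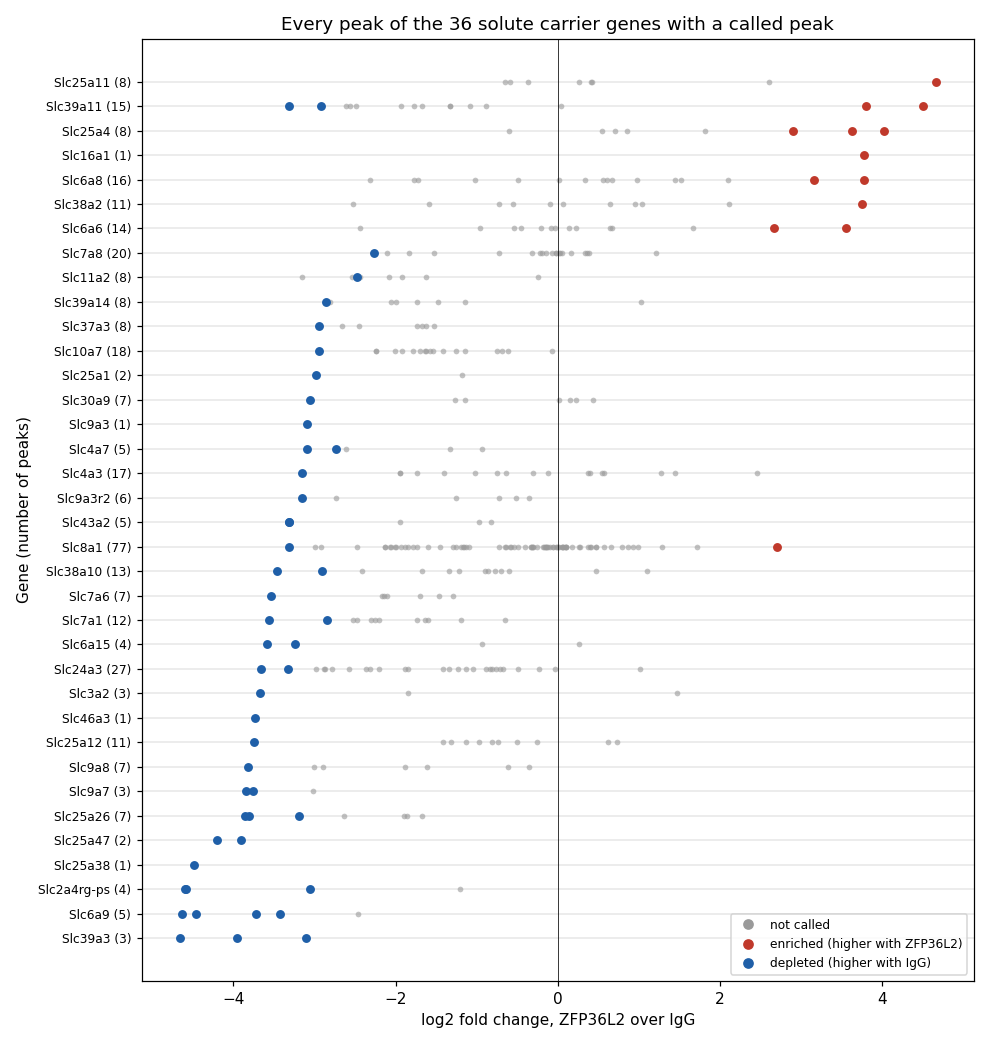
Log2 fold change (horizontal axis) of every peak of the 36 solute carrier genes with a called peak, 1 row per gene with its number of peaks in brackets. Red points are enriched, blue points depleted and grey points not called. Slc39a11 and Slc8a1 carry both colours, and the 3 peaks of Slc39a3 are all depleted, between -4.66 and -3.10.

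Amino acid and peptide transporters had 5 enriched (2.62%) and 15 depleted (7.85%) among 191 peaks of 31 genes, against 2.22% and 5.44% of all peaks. Within the Slc6 family of sodium- and chloride-dependent symporters the calls differed by gene. Slc6a6, the taurine transporter, was enriched in 2 touching coding peaks at 91726022 to 91726054 and 91726055 to 91726133 on chromosome 6, with 3.56 (adjusted p = 4.2e-06) and 2.67 (adjusted p = 2.5e-06) read from the authors' deposited table. Its other 12 peaks spread from -2.44 to 1.67 there, 7 of 14 values being above 0. Slc6a8, the creatine transporter, was enriched in 2 of 16 peaks, both coding and 165 bases apart, at 3.77 (adjusted p = 0.0005) and 3.16 (adjusted p = 0.015) as listed in the authors' deposited table. A further coding peak of Slc6a8 stood at 2.10 and was not called (adjusted p = 0.18 in the authors' deposited table).

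Slc6a9, the glycine transporter GlyT1, went the other way in 4 of 5 peaks. Its touching coding peaks at 117867777 to 117867808 and 117867809 to 117867838 on chromosome 4 had -4.63 (adjusted p = 2.7e-12) and -4.46 (adjusted p = 3.4e-11) taken from the authors' deposited table, the first being the smallest adjusted p of any member. Its touching 3′ UTR peaks stood at -3.43 and -3.72 and were depleted, and the intronic peak, at -2.46 with an adjusted p of 0.062 in the authors' deposited table, was not called. These peaks cover 2 short stretches rather than 4 separate sites. Slc6a15, a neutral amino acid transporter, had touching intronic peaks at -3.59 and -3.24 in the authors' deposited table, both depleted. The remaining Slc6 members, Slc6a7, Slc6a17 and Slc6a19, had 9 peaks and no call.

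Slc38a2 encodes SNAT2, a sodium-coupled carrier of glutamine and alanine that cells raise when amino acids run short. It was enriched in 1 of 11 peaks, in the 3′ UTR at 96688040 to 96688082 on chromosome 15, with 3.75 (adjusted p = 2.5e-06) read from the authors' deposited table. Another 3′ UTR peak stood at 2.11 (adjusted p = 0.46), and the lowest value, -2.53, lay in coding sequence and was not called (adjusted p = 0.076 in the authors' deposited table). Slc38a10, of the same family, had 2 of 13 peaks depleted, 1 in an intron at -3.46 (adjusted p = 0.0028) and 1 in the 5′ UTR at -2.91 (adjusted p = 0.042) as listed in the authors' deposited table. Its 5′ UTR peak also lies within the RefSeq span of the long noncoding RNA gene Gm11769, strand not considered.

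The 4F2hc exchangers had depleted calls and no enriched one. The whole Slc7 family, including members that work without 4F2hc, had 4 of 67 peaks depleted and 0 enriched. Over all peaks these shares were 5.44% and 2.22%. Slc3a2, the heavy chain, had 3 peaks, at -3.67, -1.85 and 1.47 by the authors' deposited table, and the first, a coding peak, was depleted (adjusted p = 0.0013). Of its light chains, Slc7a6 had 1 of 7 peaks depleted (-3.54, adjusted p = 0.0032) and Slc7a8 1 of 20 (-2.26, adjusted p = 0.045), both intronic, in the authors' deposited table. Slc7a5, which encodes the leucine carrier LAT1, ran from -1.29 to 0.64 over 6 peaks, and Slc7a11, the cystine-glutamate exchanger, from -2.75 to -0.55 over 12 intronic peaks in the authors' deposited table. Neither was called, and the same holds for Slc7a7. Slc7a1, a cationic amino acid carrier that works without 4F2hc, had 2 of 12 peaks depleted, both intronic, at -3.56 and -2.84 in the authors' deposited table. Slc43a2, a further carrier of large neutral amino acids, had touching 3′ UTR peaks that both stood at -3.31 (adjusted p = 0.025 and 0.020) taken from the authors' deposited table. Slc1a5, a glutamine carrier, had 1 peak at -2.49, which was not called (adjusted p = 0.41 in the authors' deposited table).

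Among metal ion transporters, 19 genes with 81 peaks, 2 peaks were enriched (2.47%) and 8 depleted (9.88%), against 2.22% and 5.44% of all peaks. Slc39a11, a zinc transporter of the ZIP family, held both enriched ones. They lie 123 bases apart in an intron, at 113306805 to 113306856 and 113306980 to 113307127 on chromosome 11, with 3.80 (adjusted p = 0.00037) and 4.50 (adjusted p = 1.5e-09) read from the authors' deposited table. A depleted intronic peak at 113317111 to 113317140 (-3.31, adjusted p = 0.00074) lay 9983 bases from them, and another at 113431234 to 113431298 (-2.92, adjusted p = 0.028) farther off in the authors' deposited table. The remaining 11 peaks of the gene ran from -2.61 to 0.04 there. The enriched calls of this gene thus lay within 323 bases. Slc39a3, also a zinc importer, was depleted in all 3 of its peaks, which are coding, with -4.66 (adjusted p = 8.9e-07), -3.96 (adjusted p = 0.00047) and -3.10 (adjusted p = 0.019) as listed in the authors' deposited table. The first of these is the lowest value of any member, and its peak touches the second.

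Single intronic peaks were depleted in Slc39a14, a carrier of zinc, iron and manganese (-2.86, adjusted p = 0.046), in Slc30a9, a zinc transporter of the efflux family (-3.05, adjusted p = 0.042), and in Slc11a2, the divalent metal transporter DMT1 (-2.48, adjusted p = 0.021), as listed in the authors' deposited table. The first 2 were close to the threshold. Slc39a1 and the zinc exporter Slc30a1 had 1 and 3 peaks and no call.

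**Figure D3:**
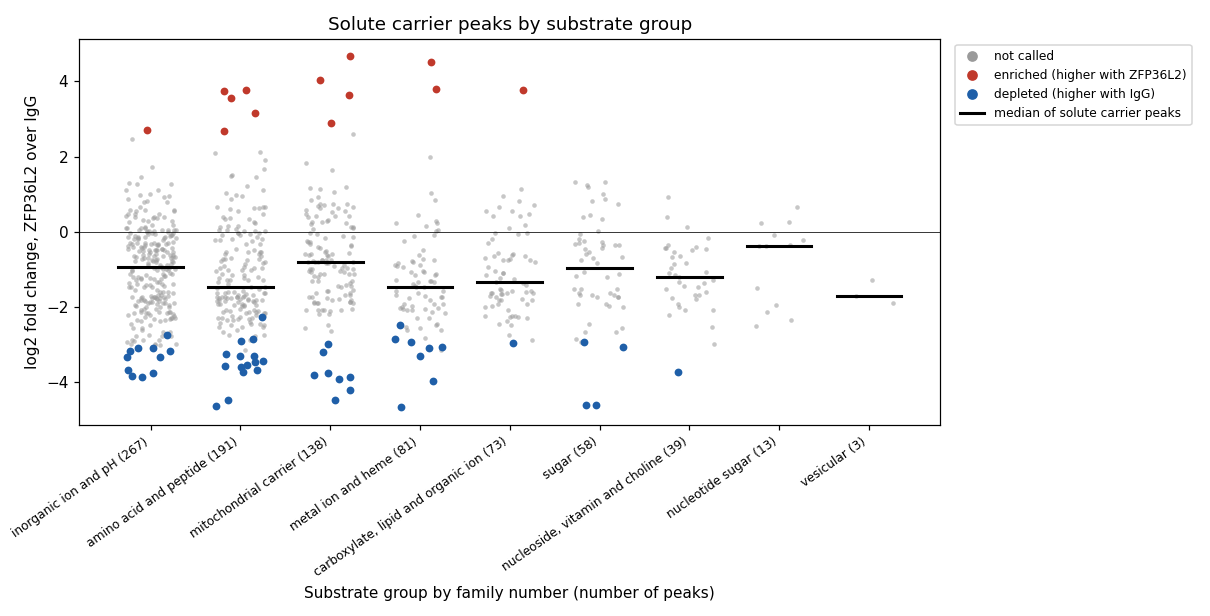
Log2 fold change (vertical axis) of solute carrier peaks by substrate group, assigned from the family number, with the number of peaks in brackets and black bars for the group median. The group medians lie between -1.70 (vesicular, 3 peaks) and -0.38 (nucleotide sugar, 13 peaks), and enriched points (red) occur in 5 of the 9 groups.

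Ion and pH transporters formed the group with the most peaks, 267 in 34 genes. Of these, 1 was enriched (0.375%) and 11 were depleted (4.12%), against 2.22% and 5.44% of all peaks. The group counts Slc9a3r1, Slc9a3r2 and Slc4a1ap, without which it held 254 peaks, 10 of them depleted, in 31 genes. Slc8a1, the plasma membrane sodium-calcium exchanger NCX1, which is prominent in heart muscle, accounted for 77 of these peaks. Its single enriched peak, 219 bases long, lay in the 3′ UTR at 81386559 to 81386777 on chromosome 17 with 2.7 (adjusted p = 0.014) taken from the authors' deposited table. A single depleted peak of 11 bases lay in an intron near the 5′-most peak, at 81690891 to 81690901, with -3.32 (adjusted p = 0.026) read from the authors' deposited table. With these 2 included, the 28 3′ UTR peaks ran from -2.92 to 2.7 with a median of -0.61, the 20 coding peaks from -2.13 to 1.72 with a median of -0.07 and the 29 intronic peaks from -3.32 to 1.29 around a median of -0.30, all read from the authors' deposited table. Transcripts of heart muscle were covered widely in the table. The 16 cardiac genes listed above, among them Ttn with 566 peaks, had 847 peaks, of which 42 (4.96%) were enriched and 1 (0.118%) depleted, against 2.22% and 5.44% of all peaks, with medians per gene from -0.82 to 1.25. What part RNA of that kind had in the values of Slc8a1, Slc25a4 and Slc4a3 was not tested.

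Slc4a3, the anion exchanger AE3, had 17 peaks between -3.16 and 2.46, with 1 coding peak depleted (-3.16, adjusted p = 0.0042) as listed in the authors' deposited table. Slc4a7, a sodium bicarbonate cotransporter, had touching intronic peaks at -3.09 and -2.73 in the authors' deposited table, both depleted. Slc24a3, a potassium-dependent sodium-calcium exchanger, had 27 peaks, 26 of them intronic, of which 2 were depleted at -3.66 and -3.33 in the authors' deposited table. Only 1 of its 27 values lay above 0.

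Sodium-proton exchangers had depleted calls in 3 genes and in a partner. These were among 10 genes of family 9, Slc9a3r1 and Slc9a3r2 included, beside 17.3% of all gene names with a depleted peak. Of the family's 47 peaks, 5 were depleted and 0 enriched, against 5.44% and 2.22% of all peaks. Slc9a7 was depleted in 2 of 3 intronic peaks (-3.85 and -3.76) and Slc9a8 in 1 of 7 (-3.82, adjusted p = 0.00025) taken from the authors' deposited table, both being exchangers of endosomal or Golgi membranes. Slc9a3, the epithelial exchanger NHE3, had 1 peak, intronic and depleted at -3.09 (adjusted p = 0.013) read from the authors' deposited table. This peak also lies in the span of the noncoding gene Gm41003, strand not considered. Slc9a3r2, a PDZ scaffold that binds NHE3 and no transporter itself, had 1 of 6 peaks depleted, in coding sequence (-3.16, adjusted p = 0.013) as listed in the authors' deposited table. The cation-chloride cotransporters of family 12 had no call, in 38 peaks of 5 genes that included Slc12a2 and Slc12a7. Over all peaks, 2.22% were enriched and 5.44% depleted.

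**Figure D4:**
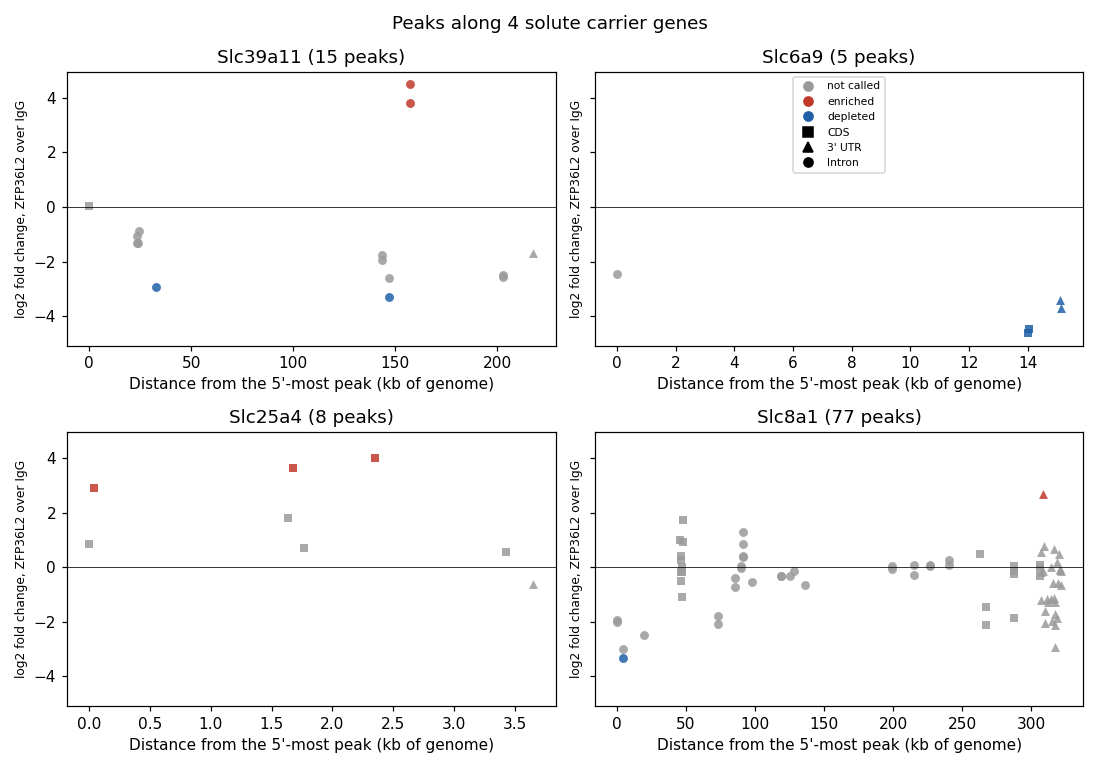
Log2 fold change (vertical axis) against distance along the genome from the 5′-most peak (kilobases) for Slc39a11, Slc6a9, Slc25a4 and Slc8a1. Squares are coding, triangles 3′ UTR and circles intronic peaks, in red where enriched, blue where depleted and grey where not called. The enriched peaks of Slc39a11 stand at 1 place in an intron with negative values on either side, and those of Slc25a4 are 3 separate coding peaks.

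Carriers of carboxylates, lipids and organic ions had 1 enriched and 1 depleted peak among 73 (1.37% each), against 2.22% and 5.44% of all peaks. Slc16a1 encodes the lactate and pyruvate carrier MCT1. Its single peak, in the 3′ UTR at 104656347 to 104656405 on chromosome 3, was enriched at 3.78 (adjusted p = 2.6e-07) taken from the authors' deposited table, which made it the only member with every peak enriched. Slc16a3, the related carrier MCT4, had 4 peaks between -0.94 and 0.10 in the authors' deposited table and no call. Slc10a7 had 18 intronic peaks, none above 0, and 1 of them was depleted (-2.95, adjusted p = 0.025) read from the authors' deposited table. Fatty acid carriers had no call, and Slc27a1 had a median of 0.47 over 13 peaks.

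Sugar transporters had no enriched peak and 4 depleted ones (6.9%) among 58, against 2.22% and 5.44% of all peaks. Slc2a1, the glucose carrier GLUT1, had 6 peaks from -1.11 to 0.38 in the authors' deposited table, none called. Of the 4 depleted peaks in this group, 3 belonged to the pseudogene Slc2a4rg-ps, at -4.60, -4.59 and -3.05 in the authors' deposited table. They touch one another, cover 62 bases and lie within the RefSeq span of Zbtb46, strand not considered. The fourth belonged to Slc37a3, an intronic peak at -2.94 (adjusted p = 0.047) as listed in the authors' deposited table. Nucleoside, vitamin and choline carriers had 1 depleted peak among 39 (2.56%, against 5.44% of all peaks). It was the only peak of the lysosomal protein gene Slc46a3 (-3.73, adjusted p = 0.00085), in the authors' deposited table. Phosphate carriers of family 20 had 12 peaks with no call.

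Every peak was depleted in 5 genes, of which 2, Slc39a3 and Slc25a47, had more than 1 peak. Of the 61 called peaks, 19 touched another called peak, and 442 of the 864 member peaks (51.2%) touched another member peak, so that some calls can stand for 1 site. Enriched member peaks had a median length of 54 bases and depleted ones of 35, beside 46 and 33 in the whole table. Each called peak lay inside the RefSeq span of its own gene, and 5 also lay in that of another gene. Strand was not considered in these overlaps.

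Genes that work with these carriers, from a list of 63 subunits, regulators and transporters with other symbols, were read in the same way. Of the 46 with a peak, 5 (10.9%) had an enriched and 7 (15.2%) a depleted peak, against 5.04% and 17.3% of all gene names, and the median over their 297 peaks was -0.82. Bsg, which encodes basigin, the chaperone that carries MCT1 to the plasma membrane, had 1 of 7 peaks enriched, in the 3′ UTR, at 6.22 (adjusted p = 6.5e-26) taken from the authors' deposited table. Nptn, the related chaperone neuroplastin, had a depleted 3′ UTR peak at -3.76 in the authors' deposited table, while Emb, embigin, had 1 peak and no call.

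Among regulators, Wnk1, the kinase upstream of the chloride cotransporters, had 2 of 29 peaks enriched, with 3.53 (adjusted p = 1.2e-11) in coding sequence in the authors' deposited table. Nedd4, a ubiquitin ligase that acts on membrane transporters, had 3 of 14, with 6.18 (adjusted p = 3.7e-18) as listed in the authors' deposited table. Tbc1d4, which controls the movement of the glucose carrier GLUT4, had 2 of 22, with 3.40 (adjusted p = 4.5e-09) in an intron in the authors' deposited table. Depleted partners were Slco3a1 (3 of 8 peaks), Mfsd14b, Sgk3, Ucp2, Spns2, Atp1b2 and Nptn, with best values from -4.34 to -2.89 in the authors' deposited table. The mitochondrial pyruvate carrier genes Mpc1 and Mpc2 had 3 peaks and no call.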

How the data were processed

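The submitters' processing notes name build mm10 and, with no role or order, the tools DESeq2 1.34.0, STAR 2.7.7a, cutadapt 3.2 and UMI-tools 1.1.1. The peak caller, any pooling and the use of the inputs are not stated in these sources. The authors deposited a log2 fold change per peak, and the deposited p-value and adjusted p-value as −log10 values, which were converted back. The adjusted values differed by at most 0.0099 (−log10) from a Benjamini-Hochberg adjustment of the p-values over all peaks.

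No library's values were given, so the authors' values stood in for the planned count test. No test was added, and a planned motif count was not made without a genome. A peak with several gene names (8 member peaks) counted for each. Counting was checked on simulated data and run in Python 3.11.15 with pandas 2.3.3. All 161 member names were RefSeq symbols. The members and lists were chosen with earlier results of these data known. Named genes were those with the largest, smallest or most calls or peaks, those called in both directions and a set of well-known carriers. Others were named after their values were seen. Some items that the rules name are left out here.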

Additional observations from a re-analysis of the deposited data

How the results depend on the processing

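At an adjusted p under 0.01, depleted solute carrier peaks dropped from 48 to 28 and genes with such a peak from 30 to 19, while 11 enriched peaks in 7 genes remained called, and 39 of 61 calls were kept. The calls of Slc8a1, Slc7a8 and Slc10a7 were among those lost. Peaks with 1 gene name held all 61 calls. A size threshold of 2, or centring with the adjusted p unchanged, could lose no call, since every called value was at least 2.67 or at most -2.26. Merging touching peaks left 12 enriched and 39 depleted. Leaving out names that are no transporter symbol left 44 depleted, and leaving out Slc8a1 left 12 and 47. The median log2 fold change, -1.12 as reported, was -0.06 when centred, -0.84 over exonic peaks and -2.06 with 1 peak per gene, the one with the smallest adjusted p. Centring turned the best values of Slc16a3 and Slc39a1, neither called, to 0.12 and 0.95. No paired analysis was possible because the table holds no values per library, and for the same reason no library could be left out. Unknown depth limits every value, and 1 IgG immunoprecipitation gives its arm no spread between libraries.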
